A study of Mus musculus with 18 samples.

Results

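A set of 7 genes of the cholesterol synthesis programme, 6 enzymes and the sterol sensor Insig1, were followed in mouse eosinophils cultured with apoptotic cells (ACs), in bulk libraries that do not separate eosinophils that took up ACs from those that did not. They were chosen by name, as the rows of the deposited table whose Ensembl identifier maps to Hmgcs1, Idi1, Fdps, Fdft1, Sqle, Lss or Insig1, and all 7 of 7 were found among the 54446 genes of the table. None of the 7 takes up cholesterol, so only the synthesis side of the programme is represented among them, and genes of uptake, movement and efflux are given beside them from lists. The 18 libraries held 6 groups of 3. In the Type 1 experiment, ACs were given to eosinophils by themselves or together with E. coli, IFN-γ or IFN-γ plus E. coli (below, both stimuli), and the IL-4 experiment held a group with ACs and a group with IL-4 and ACs. The paper describes the combined stimulus as IFN-γ followed by E. coli and does not give the interval. Results with both stimuli therefore include any effect of order and timing, which was not tested. Apart from the stimuli, the source and handling described were the same for all groups. Whether the Type 1 and IL-4 experiments were run together is not described. The eosinophils were peritoneal cells of mice on a C57BL/6 strain label that carry an Il5 transgene, which raises eosinophil numbers, the ACs were wild-type thymocytes killed with dexamethasone at 5 per eosinophil, the culture lasted 18 h, and the cells were purified again over Siglec-F beads before RNA extraction. The sources used here do not say whether all 18 libraries came from different mice. The ages of the mice and the doses of E. coli, IFN-γ and IL-4 are not given in the labels, and eosinophils cultured without ACs are not analysed here.

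Cholesterol is built from acetyl units in a long chain of reactions. Hmgcs1 makes HMG-CoA near the start, Mvk, Pmvk and Mvd carry mevalonate to the isoprene unit, Idi1 isomerises that unit, Fdps joins units into farnesyl diphosphate, Fdft1 (squalene synthase) makes squalene, Sqle oxidises squalene, and Lss closes the ring to give lanosterol. Cyp51, Msmo1, Nsdhl, Ebp, Sc5d and Dhcr7 then trim lanosterol to cholesterol. The genes of the pathway are driven by the transcription factor SREBP2, which is escorted by Scap and held back by Insig1 and Insig2 when sterols are plentiful. A phagocyte that digests dead cells receives their cholesterol through the lysosome, where Lipa and Npc2 act, and can esterify it through Soat1 or export it through Abca1.

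Promoters are shown for the tested genes on which the results turn and for which RefSeq (GRCm38.p6) gave an entry, namely Hmgcs1, Lss, Insig1 and, as the enzyme that passed the test most often, Cyp51. Of the 7 members 4 had an entry, and Idi1 is the one not printed. Each sequence runs 5′ to 3′ along the gene from 250 bases before the RefSeq start to 50 bases after it. Capitals mark matches on either strand to 3 motifs, namely TCACNCCAC, the letters of the sterol regulatory element bound by SREBP, CACGTG, the E-box, and CCAAT, the box bound by NF-Y. No match of one motif overlapped a match of another. The Hmgcs1 window is chr13:119690101-119690400 on the plus strand, that of Lss is chr10:76531355-76531654 on the plus strand, that of Insig1 is chr5:28071162-28071461 on the plus strand, and that of Cyp51 is chr5:4104648-4104947 on the minus strand.
Hmgcs1: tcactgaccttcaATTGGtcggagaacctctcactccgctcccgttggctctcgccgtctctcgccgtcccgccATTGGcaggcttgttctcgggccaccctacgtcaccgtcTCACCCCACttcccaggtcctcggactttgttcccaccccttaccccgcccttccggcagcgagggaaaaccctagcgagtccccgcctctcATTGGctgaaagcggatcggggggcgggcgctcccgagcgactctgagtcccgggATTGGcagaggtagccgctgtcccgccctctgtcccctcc
Lss: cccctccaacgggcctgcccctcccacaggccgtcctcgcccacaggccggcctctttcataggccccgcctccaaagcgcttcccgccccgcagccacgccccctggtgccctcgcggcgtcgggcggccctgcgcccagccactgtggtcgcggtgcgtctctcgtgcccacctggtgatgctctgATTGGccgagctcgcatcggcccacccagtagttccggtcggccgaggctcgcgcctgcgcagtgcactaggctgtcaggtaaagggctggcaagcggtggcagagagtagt
Insig1: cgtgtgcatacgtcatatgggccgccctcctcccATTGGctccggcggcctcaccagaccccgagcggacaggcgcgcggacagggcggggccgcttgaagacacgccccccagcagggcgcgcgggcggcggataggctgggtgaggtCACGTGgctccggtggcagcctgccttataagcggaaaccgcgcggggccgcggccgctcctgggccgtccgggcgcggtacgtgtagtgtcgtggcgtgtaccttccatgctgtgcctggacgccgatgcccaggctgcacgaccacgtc
Cyp51: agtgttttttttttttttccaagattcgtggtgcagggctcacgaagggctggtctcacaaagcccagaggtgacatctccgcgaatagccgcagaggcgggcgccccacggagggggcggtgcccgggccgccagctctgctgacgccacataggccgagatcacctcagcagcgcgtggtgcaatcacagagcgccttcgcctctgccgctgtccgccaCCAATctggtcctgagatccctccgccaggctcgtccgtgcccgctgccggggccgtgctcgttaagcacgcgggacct
Hmgcs1 held TCACNCCAC once and CCAAT 4 times, all of the latter read on the opposite strand. Lss held CCAAT once, Insig1 held CACGTG once and CCAAT once, and Cyp51 held CCAAT once. Idi1 held CCAAT 2 times. Over the 32851 RefSeq promoter windows of this length, TCACNCCAC occurred in 1.24%, CACGTG in 7.15% and CCAAT in 37.4%. These matches describe letters in the windows only.

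CEL-Seq2, a method that reads the 3′ ends of transcripts, was used for all libraries. The deposited value is a normalized count, the number of reads on a gene divided by the size factor of the library, and it is the unit of every level below. Levels are compared within a gene and not between genes. Each library held 779421 to 7782072 reads on genes (median 4461121), and the replicate 3 libraries of both groups of the IL-4 experiment stood apart as shallow, with 849705 reads (IL-4 + ACs) and 779421 reads (ACs), where 1 read is worth a normalized count of 5.14 and 5.36. Among eosinophil markers, Siglecf (1514 to 3367), Ccr3 (2623 to 4934) and Alox15 (5145 to 11929) were high in every library, whereas Epx, the eosinophil peroxidase gene, lay between 0 and 25.7. All 8 macrophage markers had means of at least 10 in all 6 groups. C1qc (2138 to 14355), C1qb (791 to 8974) and Adgre1 (1698 to 3140) were also high in every library, and Timd4 was the lowest (31.9 to 314). In the IL-4 experiment the 8 summed to 18877 to 26979 with ACs and 16225 to 26065 with IL-4 + ACs. The 7 eosinophil markers summed there to 18336 to 19311 and 16186 to 18415. Among the thymocyte markers, Cd3d lay between 4.28 and 42.0, and Lck and Cd4 ranged from 0 to 64.2 and 40.9. Rag1 and Dntt did not exceed 5.14 and 4.69 in any library.

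All 7 members were weakly expressed at the depth of these libraries. Hmgcs1 had 8 to 106 reads per library, Fdft1 5 to 65 and Lss 4 to 43, while Insig1 had 0 to 29, Sqle 1 to 19, Idi1 0 to 12 and Fdps 0 to 8. A gene was tested where its mean normalized count over the libraries of the fit was at least 10. Hmgcs1, Fdft1 and Lss passed this filter in the Type 1 experiment (3 of 7), Insig1 passed it as well in the IL-4 experiment (4 of 7), and Sqle, Idi1 and Fdps passed in neither. The differences below are on the scale of log2(normalized count + 1), fitted with limma over all genes, which understates changes of low genes. To pass the threshold, a gene needed a change of 1.5-fold or more and a p below 0.05 after Benjamini-Hochberg adjustment over all genes tested.

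Hmgcs1, the first enzyme of the chain among the members, was at 40.7, 37.5 and 29.4 in the 3 libraries with ACs of the Type 1 experiment. With E. coli + ACs it was at 45.2, 46.6 and 44.0, with IFN-γ + ACs at 19.8, 26.4 and 34.9, and under both stimuli at 24.2, 41.5 and 52.4. The E. coli libraries all lay above the ACs libraries, and those with IFN-γ, alone or with E. coli, overlapped them. In the IL-4 experiment Hmgcs1 was at 54.9, 48.3 and 42.9 with ACs and at 57.4, 55.9 and 61.7 with IL-4 + ACs, again without overlap. The group means in the order of level were 58.3 ± 3.03 (SD, n = 3) with IL-4 + ACs, 48.7 ± 6.01 with ACs of that experiment, 45.3 ± 1.31 with E. coli + ACs, 39.4 ± 14.2 with both Type 1 stimuli, 35.9 ± 5.84 with ACs of the Type 1 experiment and 27.0 ± 7.57 with IFN-γ + ACs. Neighbours in this order overlapped in their libraries except for IL-4 + ACs over ACs.

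Fdft1 commits farnesyl units to sterols. With ACs of the Type 1 experiment its libraries lay close together at 20.3, 22.5 and 22.8. They were at 33.5, 36.0 and 26.4 with E. coli + ACs, all above the ACs libraries, and at 14.5, 18.3 and 10.3 with IFN-γ + ACs, all below them. Under both stimuli the 3 libraries were spread over 24.2, 41.5 and 16.6. In the IL-4 experiment Fdft1 was at 34.6, 50.6 and 53.6 with ACs and at 25.5, 32.1 and 51.4 with IL-4 + ACs, which overlap. The mean was highest in the ACs group of the IL-4 experiment (46.3 ± 10.2) and lowest with IFN-γ + ACs (14.4 ± 4.04).

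Lss was at 24.4, 28.2 and 18.8 with ACs of the Type 1 experiment, at 24.3, 35.2 and 36.9 with E. coli + ACs, at 19.8, 29.8 and 24.6 with IFN-γ + ACs, and at 9.98, 20.8 and 24.8 with both stimuli. These groups overlap. Lss of the IL-4 experiment was at 21.1, 27.3 and 32.2 with ACs and at 12.2, 20.02 and 20.6 with IL-4 + ACs, and all 3 IL-4 libraries lay below the ACs libraries.

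Insig1, which retains SREBP in the endoplasmic reticulum, was low in the Type 1 experiment, at 4.88, 5.63 and 4.08 with ACs and at 3.35, 2.45 and 8.80 with E. coli + ACs. IFN-γ + ACs gave 9.23, 4.58 and 18.5, and both stimuli 18.5, 3.66 and 8.28, so that 2 of the 3 libraries in each of these groups exceeded every ACs library. Insig1 of the IL-4 experiment was at 18.1, 20.2 and 0 with ACs and at 16.8, 12.7 and 10.3 with IL-4 + ACs. The 0 was in the shallow library of the ACs group, where the count of 0 allows a normalized count of up to 16.1 (3 reads, counting error only).

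The other 3 members had few reads in every library and were not tested. Sqle, the enzyme that brings oxygen into squalene, was at 5.69, 1.88 and 2.45 with ACs of the Type 1 experiment and at 7.13, 7.33 and 6.90 under both stimuli, a difference that rests on 2 to 7 reads per library. Its other groups had means of 5.69 ± 2.81 with E. coli, 3.15 ± 0.987 with IFN-γ, 6.88 ± 1.46 with ACs of the IL-4 experiment and 6.98 ± 2.64 with IL-4 + ACs. Idi1 had group means from 3.20 ± 3.09 (IFN-γ + ACs) to 10.97 ± 9.08 (ACs of the IL-4 experiment), and Fdps from 1.39 ± 0.918 (E. coli + ACs) to 3.78 ± 3.97 (IFN-γ + ACs). With SDs of this size no order of the groups can be read for Idi1 or Fdps. In a fit of all genes with any value above 0, no member was past the threshold against ACs.

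**Figure D1:**
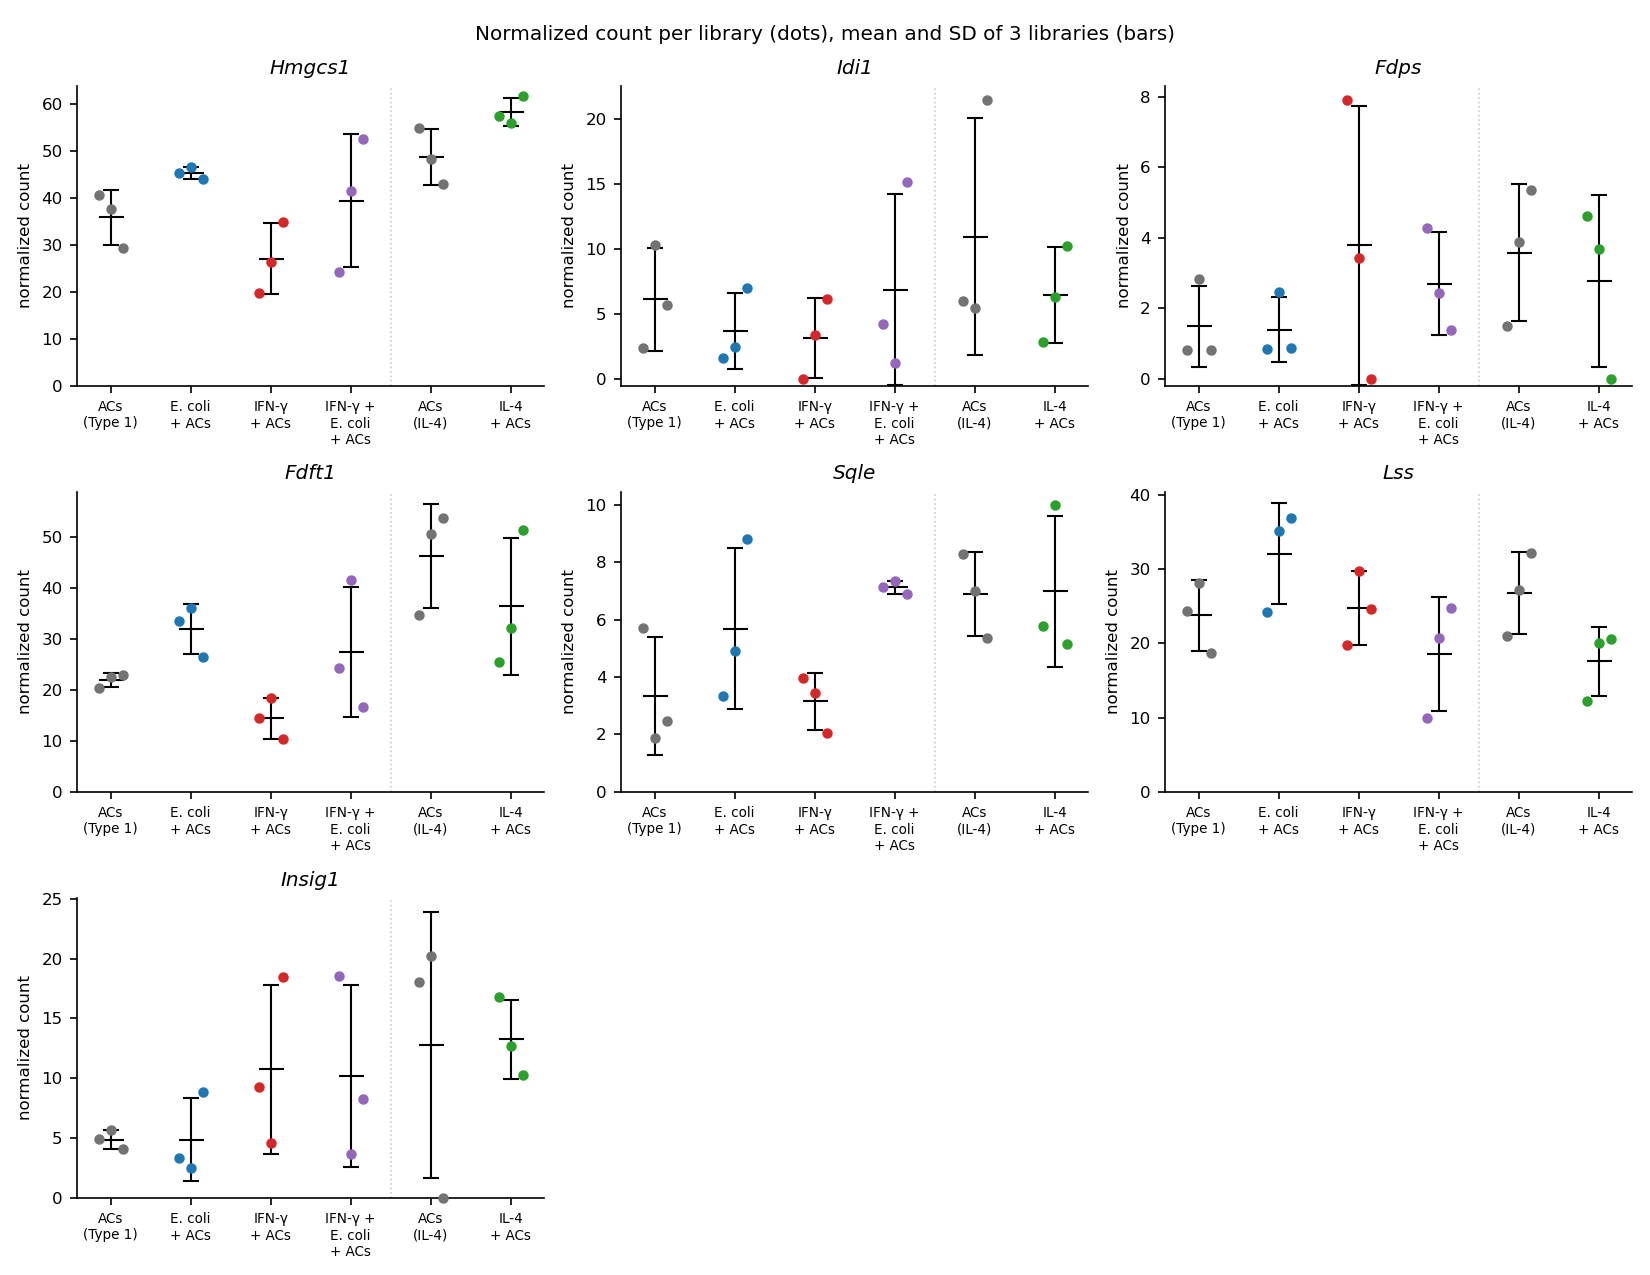
Normalized counts of the 7 members in the 18 libraries, with 1 panel per gene in pathway order and Insig1 last, dots for single libraries, and bars for the mean and SD of 3 libraries. The dotted line separates the Type 1 from the IL-4 experiment. Fdft1 lies above its ACs libraries with E. coli (26.4 to 36.0) and below them with IFN-γ (10.3 to 18.3), and Insig1, Idi1 and Fdps each reach 0 in at least 1 library.

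The ACs groups of the experiments, which had the same labelled treatment, differed in level for several members. Fdft1 was at 20.3 to 22.8 with ACs of the Type 1 experiment and at 34.6 to 53.6 with those of the other, and Hmgcs1 at 29.4 to 40.7 and at 42.9 to 54.9, both without overlap, while Lss (18.8 to 28.2 and 21.1 to 32.2) overlapped. The share of all genes without overlap between these ACs groups was not counted, so this cannot be read as particular to the members. Each stimulus was therefore compared with ACs of its own experiment, and the experiment and its libraries cannot be told apart.

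The question of the first comparison was whether E. coli changed these genes in eosinophils cultured with ACs. With E. coli + ACs, 0 of the 3 tested members rose and 0 fell, against 5.05% of 10166 genes that rose and 5.25% that fell. The differences were 0.34 for Hmgcs1 (SE 0.31, 95% interval -0.31 to 0.99), 0.52 for Fdft1 (SE 0.37, -0.25 to 1.28) and 0.41 for Lss (SE 0.37, -0.35 to 1.18), with adjusted p from 0.419 to 0.547 in limma. The median over the 3 was 0.41, and that over all genes tested was -0.0040. Of the 3, Hmgcs1 and Fdft1 had groups of 3 without overlap, 2 in all, as did 38.3% of all genes tested.

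With IFN-γ + ACs, 0 of the 3 tested members were past the threshold in either direction, while 11.4% of genes rose and 9.96% fell. Hmgcs1 differed from ACs by -0.42 (SE 0.31, -1.07 to 0.23), Fdft1 by -0.61 (SE 0.37, -1.38 to 0.16) and Lss by 0.06 (SE 0.37, -0.71 to 0.82), with adjusted p from 0.24 to 0.931. Of the 3, only Fdft1 had groups without overlap, against 42.9% of all genes.

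With both stimuli, 0 of the 3 tested members were past the threshold, although this comparison held the most calls over all genes (14.7% rose and 17.2% fell, or 1494 and 1746 genes, and 1155 and 2200 genes after upper quartile rescaling). The differences were 0.08 for Hmgcs1 (SE 0.31, -0.57 to 0.73), 0.22 for Fdft1 (SE 0.37, -0.55 to 0.99) and -0.41 for Lss (SE 0.37, -1.18 to 0.35), with adjusted p from 0.393 to 0.863. None of the 3 tested members had groups without overlap, against 48.8% of all genes. The term for non-additivity of IFN-γ and E. coli, for which 7.44% of genes passed, was passed by 0 of the 3.

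With IL-4 + ACs, 0 of the 4 tested members were past the threshold, in a comparison in which 0.74% of 10669 genes rose and 0.347% fell (79 and 37 genes, and 345 and 311 without the shallow replicate 3 libraries). Hmgcs1 differed by 0.26 (SE 0.25, -0.30 to 0.82), Fdft1 by -0.37 (SE 0.35, -1.16 to 0.41), Lss by -0.60 (SE 0.42, -1.54 to 0.35) and Insig1 by 0.92 (SE 1.12, -1.58 to 3.42), with adjusted p from 0.698 to 0.819. Of the 4, 2 had groups without overlap (Hmgcs1 and Lss), against 17.3% of all genes. Without both shallow libraries, a choice made after the depth was seen, Insig1 differed by -0.37 (SE 0.36, -1.16 to 0.42), Fdft1 by -0.53 (SE 0.29, -1.16 to 0.09), Lss by -0.59 (SE 0.37, -1.38 to 0.21) and Hmgcs1 by 0.13 (SE 0.21, -0.33 to 0.60), so the positive value of Insig1 rests on the library in which no read was counted.

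In these 4 comparisons, 0 members had an unadjusted p under 0.05, and edgeR and DESeq2 on the recovered reads called 0 members as well. The intervals of Hmgcs1, Fdft1 and Lss include 0 and also, on at least 1 side, changes of more than 1.5-fold, so changes of that size were not excluded.

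A difference between members and groups was called in 1 comparison, that of the single Type 1 stimuli with each other. Fdft1 was lower with IFN-γ + ACs (14.5, 18.3 and 10.3) than with E. coli + ACs (33.5, 36.0 and 26.4), without overlap. The difference was -1.12 (SE 0.37, 95% interval -1.89 to -0.36, adjusted p = 0.035), a ratio of means of 0.45. This was 1 of 3 tested members, in a comparison in which 16.6% of genes were past the threshold in either direction. The share of all genes without overlap was not counted for this comparison. Hmgcs1 also lay lower with IFN-γ + ACs in all 3 libraries, with a difference of -0.76 (SE 0.31, -1.41 to -0.11) and an adjusted p of 0.0974, and Lss differed by -0.36 (SE 0.37, -1.13 to 0.41). The call of Fdft1 held in edgeR (-1.12, adjusted p = 0.043) and DESeq2 (-1.12, adjusted p = 0.047) but was lost when any of 5 of the 6 libraries was left out, at adjusted p from 0.054 to 0.12, and held without IFN-γ + ACs replicate 2. It was also lost in the fit of all genes with any value above 0 (adjusted p = 0.086).

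In the remaining comparisons 0 of the 3 tested members were past the threshold in limma, edgeR or DESeq2. IFN-γ + E. coli + ACs differed from IFN-γ + ACs in 14.6% of genes, and 3312 of 10166 had an unadjusted p under 0.05 in limma. Fdft1 was the single member among the latter (difference 0.83, SE 0.37, adjusted p = 0.122). Without IFN-γ + E. coli + ACs replicate 3 this difference was 1.13 and past the threshold (adjusted p = 0.046). IFN-γ + E. coli + ACs differed from E. coli + ACs in 19.4% of genes, and 3779 of 10166 had an unadjusted p under 0.05 in limma. Lss was the single member among the latter (difference -0.83, SE 0.37, adjusted p = 0.105). The response to IL-4 was set against the response to E. coli, to IFN-γ and to both. These differences of responses passed for 4.43%, 14.3% and 20.4% of genes and for 0 members. At an unadjusted p under 0.05 in limma there were 0 members, and 1707, 2795 and 3496 of 10414 genes.

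**Figure D2:**
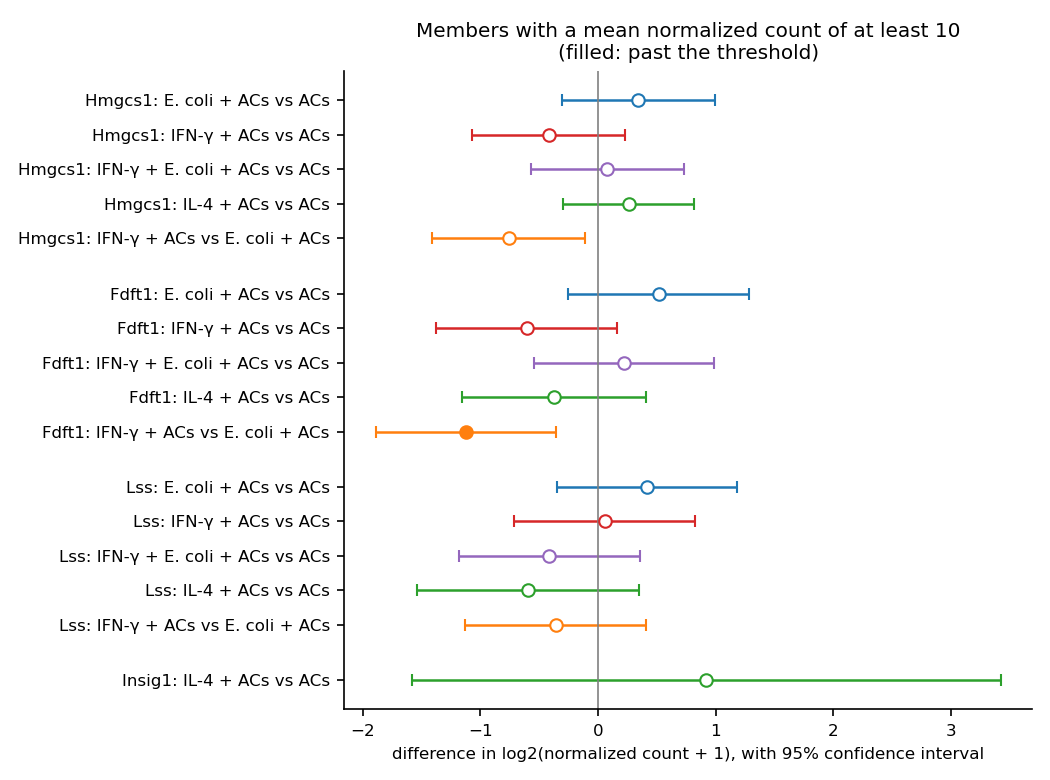
Differences in log2(normalized count + 1) of the tested members, as points with 95% confidence intervals on the horizontal axis, for the 4 stimuli against ACs and for IFN-γ + ACs against E. coli + ACs. The filled point, Fdft1 in the last of these (-1.12), is the one past the threshold, and every interval against ACs includes 0.

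In the rest of the synthesis pathway, calls in opposite directions against ACs occurred in limma only with both stimuli. Of 13 further enzymes, 10 were tested. With E. coli + ACs 1 rose and 0 fell, with IFN-γ + ACs 2 rose and 0 fell, with both stimuli 1 rose and 2 fell, and with IL-4 + ACs 0 passed in either direction. Over all genes, the shares that rose and fell were 5.05% and 5.25% with E. coli, 11.4% and 9.96% with IFN-γ, 14.7% and 17.2% with both, and 0.74% and 0.347% with IL-4, and these stand beside the counts of every list below. The medians of the 10 were 0.10, -0.18, -0.45 and -0.19, and those over all genes tested 0.00, 0.00, -0.05 and -0.01.

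Cyp51, which removes the first methyl group from lanosterol and stands directly after Lss, was higher with each Type 1 stimulus. It was at 96.0, 58.2 and 74.2 with ACs, at 103, 112 and 137 with E. coli + ACs, at 154, 126 and 172 with IFN-γ + ACs and at 245, 193 and 222 under both stimuli, and none of the stimulated groups overlapped the ACs group. It rose by 1.54 with both stimuli (SE 0.20, adjusted p = 6.19e-06, 2.89-fold in means) and by 1.00 with IFN-γ (SE 0.20, adjusted p = 0.000954), and the change with E. coli was 0.64 (SE 0.20, adjusted p = 0.0416). The last of these calls was lost without any of 5 of the 6 libraries (adjusted p from 0.057 to 0.21) and held without ACs replicate 1, and it was lost with all genes with any value above 0 (adjusted p = 0.068) and under upper quartile rescaling (adjusted p = 0.053). The non-additive term of Cyp51 was -0.09 (SE 0.28, -0.69 to 0.51, adjusted p = 0.894). With IL-4 it was at 56.2, 54.8 and 0, against 56.4, 38.2 and 59.0 with ACs, and the 0 was again in the shallow library. The difference was -1.80 (SE 1.28) with all libraries and 0.25 (SE 0.24, -0.28 to 0.79, adjusted p = 0.59) without both shallow ones. In a fit of all 18 libraries, which includes that library, the adjusted p of Cyp51 was 0.76 with E. coli, 0.47 with IFN-γ and 0.19 with both.

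Mvd, the decarboxylase that yields the isoprene unit, was at 105, 102 and 97.9 with ACs, 143, 145 and 203 with E. coli + ACs, and 166, 189 and 154 with IFN-γ + ACs, and at 55.6, 123 and 75.9 with both stimuli. It rose by 0.73 with IFN-γ (SE 0.23, adjusted p = 0.0256), and differed by 0.66 with E. coli (SE 0.23, adjusted p = 0.0686) and by -0.33 with both (SE 0.23, adjusted p = 0.274). The call with IFN-γ was lost without any of 5 of the 6 libraries (adjusted p from 0.054 to 0.09) and under upper quartile rescaling (adjusted p = 0.054), and held without IFN-γ + ACs replicate 3. Ebp, the sterol isomerase, fell by 0.94 with both stimuli (SE 0.18, adjusted p = 0.000339), from 142, 160 and 140 to 81.3, 85.5 and 63.5. Mvk, the mevalonate kinase, fell by 1.44 with both (SE 0.52, adjusted p = 0.0339), from 16.3, 15.02 and 16.3 to 2.85, 4.89 and 9.66, which are 2 to 7 reads per library. That call was lost without any of 5 of the 6 libraries (adjusted p from 0.061 to 0.12) and with all genes with any value above 0 (adjusted p = 0.088), and held without IFN-γ + E. coli + ACs replicate 3.

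Dhcr7, the 7-dehydrocholesterol reductase, was below the filter in the Type 1 experiment and is named because of its values. It had 10, 3 and 17 reads with ACs, 1, 6 and 6 with E. coli + ACs and 0 in all 6 libraries with IFN-γ. A count of 0 was taken as at most 3 reads over the group. The pooled ACs value as observed (8.52, from 30 reads) was 6.01-fold this limit with IFN-γ + ACs and 6.38-fold with both stimuli. These folds allow for counting error of the 0 only, not for error of the ACs value or spread between libraries. In the limma fit of all genes with any value above 0 the adjusted p of Dhcr7 was 0.003 and 0.002.

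**Figure D3:**
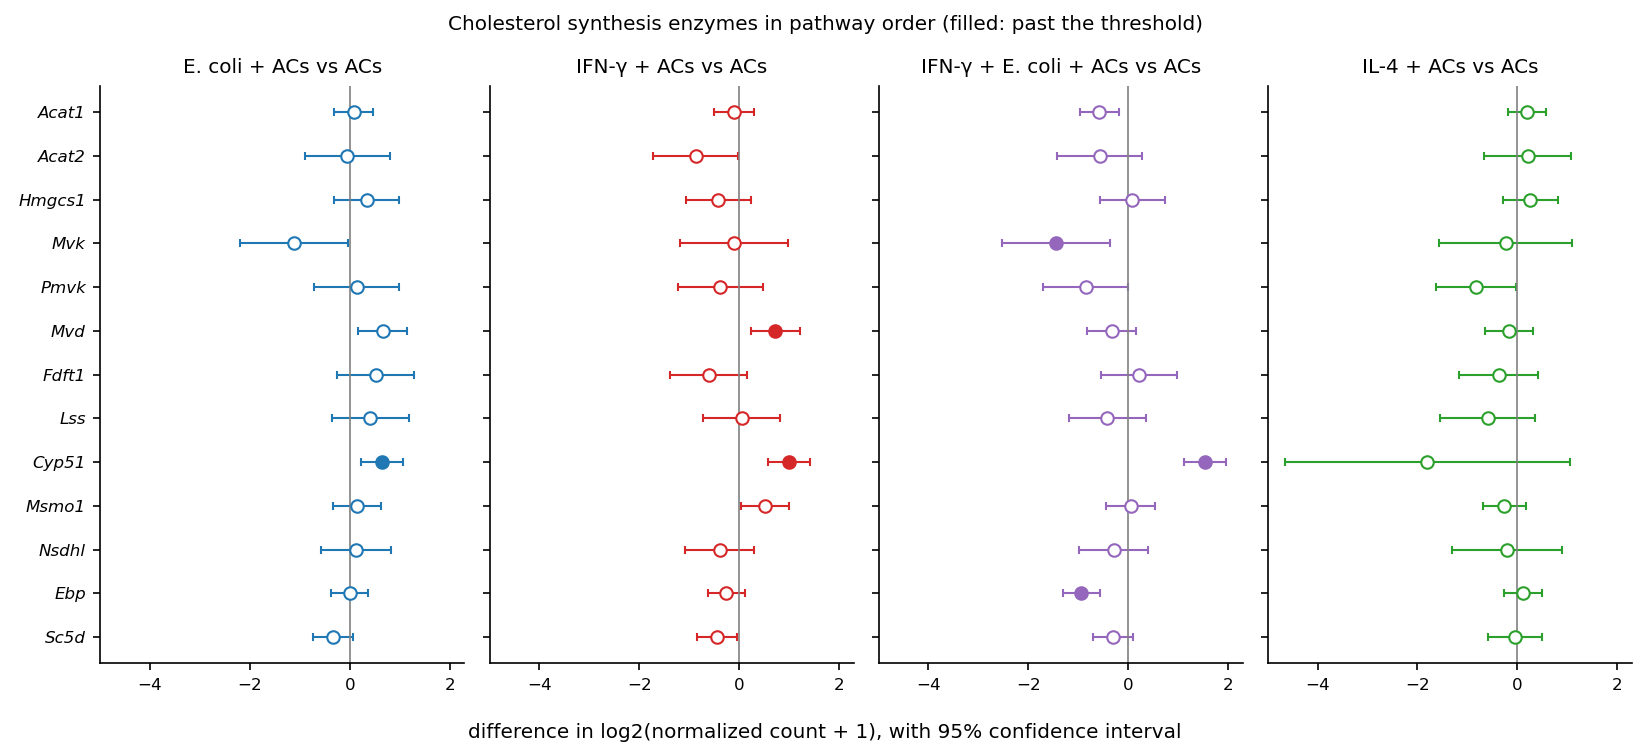
Differences in log2(normalized count + 1) against ACs for the tested cholesterol synthesis enzymes, in pathway order from top to bottom, with 95% confidence intervals and 1 panel per stimulus. Filled points are past the threshold. Cyp51 lies to the right of 0 in the 3 Type 1 panels, and no point is filled with IL-4.

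**Figure D4:**
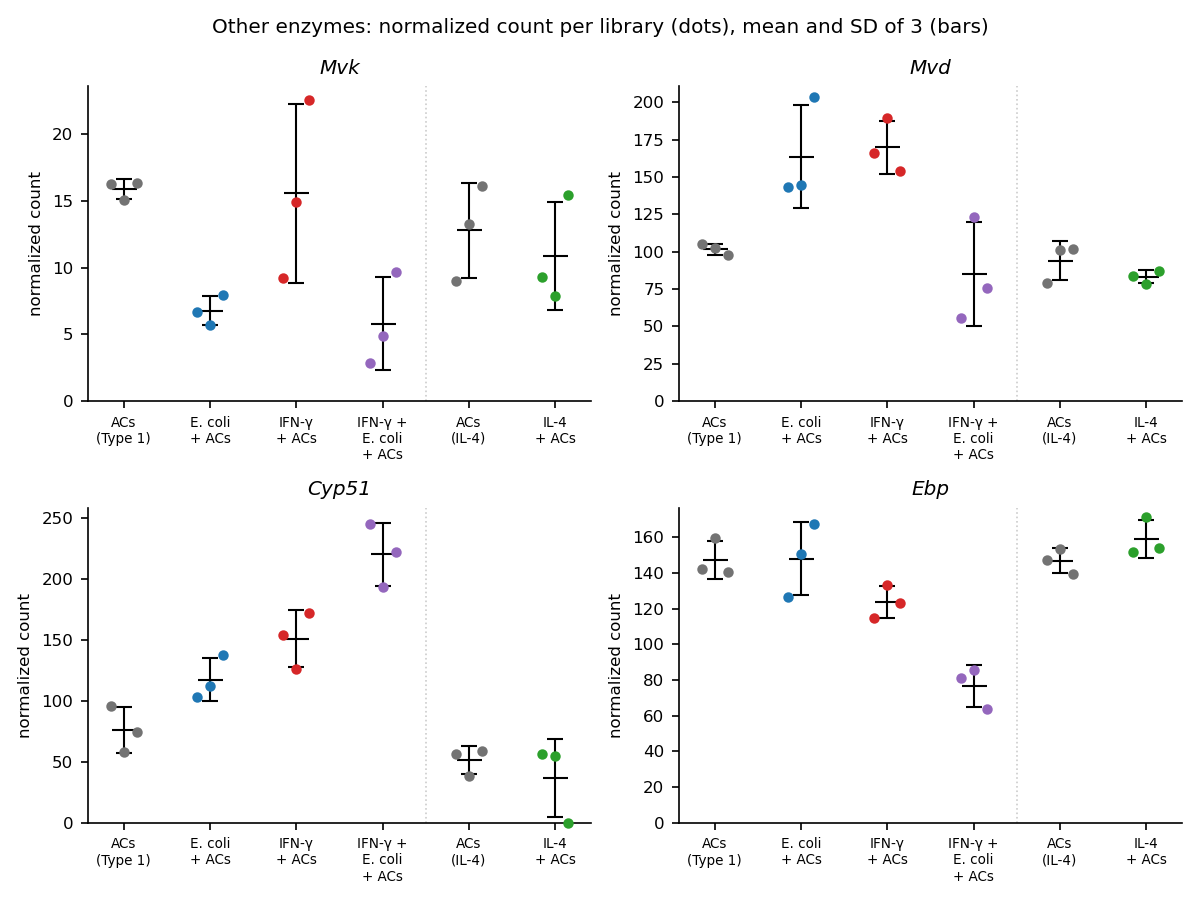
Normalized counts of Mvk, Mvd, Cyp51 and Ebp in the 18 libraries, with dots for libraries and bars for the mean and SD of 3. Cyp51 has a mean of 76.1 with ACs and 220 under both stimuli, and Mvk has 15.9 with ACs and 5.80 under both stimuli. The 0 of Cyp51 is in the shallow IL-4 + ACs library.

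Cell type markers moved with the Type 1 groups. The summed level of the 8 macrophage markers was 13603 to 16884 with ACs, 7286 to 8620 with E. coli + ACs, 18594 to 26286 with IFN-γ + ACs and 7990 to 8194 with both, and that of the 7 eosinophil markers was 16101 to 17632, 16531 to 17338, 9988 to 11139 and 14215 to 16600. C1qc and C1qb had the highest medians of the macrophage markers (8030 and 3049) and weigh most in their sum. Past the threshold, 0 macrophage markers rose and 4 fell with E. coli. With IFN-γ 3 rose and 0 fell, and with both stimuli 2 rose and 4 fell. Of 6 tested eosinophil markers 0 rose, and 1 fell with E. coli, 4 with IFN-γ and 1 with both. The sum of the 5 B cell markers was 901 to 1040 with ACs and 97.6 to 317 in the stimulated groups. The 10 thymocyte markers summed to 34.5 to 176 in these 12 libraries, with Rag1 at 0 in every library with E. coli + ACs and with both stimuli. The share of reads on mitochondrial genes was 10.9 to 11.9% with ACs and 6.05 to 9.47% with the stimuli. In such bulk samples fewer cells of a type and less RNA per cell cannot be told apart, and the part of these shifts in the results on Fdft1, Cyp51 and the genes below was not tested.

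Among the 8 genes that control SREBP, all tested, 0 passed with E. coli, 1 rose and 1 fell with IFN-γ, 3 rose and 1 fell with both, and 0 passed with IL-4, against 11.4% of all genes that rose and 9.96% that fell with IFN-γ and 14.7% and 17.2% with both. Scap, the escort of SREBP, fell by 1.19 with both stimuli (SE 0.28, adjusted p = 0.0024) and by 1.01 with IFN-γ (SE 0.28, adjusted p = 0.0109), from 128, 160 and 118 with ACs to 68.4, 88.0 and 33.1 and to 51.4, 80.2 and 69.8. The call with IFN-γ was lost without ACs replicate 2 (adjusted p = 0.057) or IFN-γ + ACs replicate 1 (adjusted p = 0.056). Insig2, the relative of Insig1, was at 61.0, 56.3 and 66.9 with ACs and at 95.5, 111 and 137 with both, a rise of 0.88 (SE 0.20, adjusted p = 0.00219). Srebf1, which drives fatty acid genes, rose by 0.72 with both (SE 0.20, adjusted p = 0.00705), a change under 1.5-fold after upper quartile rescaling (0.58). Rnf139, a ubiquitin ligase of the endoplasmic reticulum, rose by 0.78 with both (SE 0.15, adjusted p = 0.000388) and by 0.61 with IFN-γ (SE 0.15, adjusted p = 0.00488), and the latter was under 1.5-fold in edgeR (0.584) and after upper quartile rescaling (0.52). Srebf2, the gene of SREBP2 itself, was at 200, 183 and 177 with ACs and at 278, 238 and 217 with both, a difference of 0.38 (SE 0.16, 0.04 to 0.72) that missed the threshold (adjusted p = 0.0721).

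Of 9 genes of sterol uptake and movement, 7 could be tested for Type 1 and 9 for IL-4. With IFN-γ 4 rose and 0 fell, with E. coli 1 fell, with both 1 rose, and with IL-4 0 passed. Without both shallow libraries 2 genes of the list passed with IL-4, Lipa at -1.04 (SE 0.16, adjusted p = 0.0019) and Mylip, a ubiquitin ligase that acts on lipoprotein receptors, at 0.64 (SE 0.15, adjusted p = 0.027), against -0.83 (SE 0.20, adjusted p = 0.133) and 0.24 (SE 0.26, adjusted p = 0.788) with all 6 libraries. Lipa was at 517, 747 and 584 with ACs of the IL-4 experiment and at 312, 291 and 442 with IL-4 + ACs, without overlap. In the Type 1 experiment Lipa, the lysosomal lipase that frees cholesterol from its esters, was at 393, 317 and 345 with ACs and at 782, 953 and 1213 with IFN-γ + ACs, a rise of 1.46 (SE 0.15, adjusted p = 6.46e-07), and it rose by 0.71 with both (SE 0.15, adjusted p = 0.00122), which was 0.57 and under 1.5-fold after upper quartile rescaling. Soat1, which esterifies cholesterol, rose by 1.18 with IFN-γ (SE 0.17, adjusted p = 2.9e-05). Npc2, which carries cholesterol inside the lysosome, rose by 0.59 with IFN-γ (SE 0.10), a change whose fold fell under 1.5 in edgeR (0.57), in DESeq2 (0.581), after upper quartile rescaling (0.50), and without ACs replicate 3 (0.54) or IFN-γ + ACs replicate 2 (0.52). Lrp1, a receptor for lipoproteins and other ligands, rose by 0.79 with IFN-γ (SE 0.21, adjusted p = 0.00835) and fell by 1.00 with E. coli (SE 0.21, adjusted p = 0.00265).

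Of 6 oxysterol and efflux genes 5 were tested, and 1 rose with E. coli, 3 with IFN-γ, 3 with both and 1 with IL-4, against 5.05%, 11.4%, 14.7% and 0.74% of all genes. Ch25h, which makes 25-hydroxycholesterol, a sterol that blocks SREBP processing, was the one list gene past the threshold with all 4 stimuli. It was at 12.2, 13.1 and 13.1 with ACs of the Type 1 experiment and at 130, 103 and 125 with E. coli, 60.7, 98.6 and 86.2 with IFN-γ and 51.3, 34.2 and 66.2 with both, rises of 3.12 (SE 0.27), 2.56 (SE 0.27) and 1.85 (SE 0.27). Ch25h of the IL-4 experiment was at 18.1, 11.7 and 21.5 with ACs and at 133, 105 and 164 with IL-4, a rise of 2.92 (SE 0.32, adjusted p = 0.00175), and 2.94 without both shallow libraries. The exporter gene Abca1 rose by 1.48 with IFN-γ (SE 0.16) and by 0.95 with both (SE 0.16), Nr1h3, the gene of LXRα, by 1.23 with IFN-γ (SE 0.33) and Nr1h2, that of LXRβ, by 0.75 with both (SE 0.16). The call of Nr1h3 was lost without ACs replicate 3 (0.89, adjusted p = 0.063), and the fold of Nr1h2 fell under 1.5 without IFN-γ + E. coli + ACs replicate 2 (0.55).

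Of 9 fatty acid synthesis genes of the SREBP programme, 5 could be tested for Type 1 and 6 for IL-4. Acaca, which makes malonyl-CoA, fell by 1.69 with E. coli (SE 0.31, adjusted p = 0.000802) and by 1.61 with both (SE 0.31, adjusted p = 0.000361), from 68.3, 61.9 and 103 to 20.9, 27.0 and 21.1 and to 35.6, 15.9 and 24.8. Scd2, a stearoyl-CoA desaturase, fell by 1.09 with E. coli (SE 0.27, adjusted p = 0.0104), a call lost without ACs replicate 2 (adjusted p = 0.051) or E. coli + ACs replicate 1 (adjusted p = 0.074). With IFN-γ and with IL-4 0 of the tested genes passed. Acly, which makes acetyl-CoA from citrate, had means of 1084 with ACs of the IL-4 experiment and 642 with IL-4 + ACs, a difference of -0.73 (SE 0.20, adjusted p = 0.194), which was -1.01 (SE 0.14, adjusted p = 0.0011) and past the threshold without both shallow libraries. Acaca differed with IL-4 by -1.37 (SE 0.36, adjusted p = 0.174) and by -0.97 (SE 0.28, adjusted p = 0.058) without them, and both genes had groups without overlap. Acly and Mylip were named after their values were seen. Of 8 genes of the isoprenoid side branch 7 were tested, and the ubiquinone genes Coq2 (fell by 1.36, SE 0.32) and Pdss2 (fell by 2.73, SE 0.70, at 0 to 5 reads per library) were lower with both stimuli, while 0 passed with any other. In the 9 cases above in which 0 genes of a list passed in limma against ACs, 7 of 67 tested genes had an unadjusted p under 0.05. Over all genes, 2633 of 10166 did with E. coli, 3816 of 10166 with IFN-γ and 1030 of 10669 with IL-4. In these cases edgeR and DESeq2 called 3 genes each, which were Scd2 with IFN-γ and Lipa and Acly with IL-4. Over all genes edgeR called 1129 higher and 1098 lower with IFN-γ, and 127 and 85 with IL-4. DESeq2 called 1160 and 1055, and 128 and 81.

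The genes whose pattern was most like the mean of the 7 members were found over the 18 libraries, each gene centred on the ACs mean of its own experiment, among 6907 genes with a mean of at least 50. They were Rsl24d1 (Pearson r = 0.85), Slc25a46 (0.83), Frmd8 (0.79), Furin (0.77), Ermard (0.75), Usp19 (0.74), Cbfb (0.74), Maml1 (0.74), Sertad2 (0.73) and Rbx1 (0.73). None is an enzyme of sterol synthesis, but the members and enzymes of low level, such as Mvk and Dhcr7, were not among the genes searched. The centred mean of the members ranged from -0.22 to 0.46 over the libraries, so these correlations rest on small differences between low counts that share the size factor of each library.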

How the data were processed

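RNA was profiled by CEL-Seq2 in 18 libraries. The deposited values are a signal per gene, which the authors made by dividing each read count by a library size factor as DESeq2 computes it. Per the labels the tools were FastQC 0.11.5, Trim Galore, cutadapt 1.10, TopHat2 2.1.0, Bowtie2 2.2.6, HTSeq 0.6.1 and DESeq2 1.26.0 with GRCm38. The methods describe 2 pipelines and do not say which made this table, nor whether molecular identifiers were collapsed, so counts may include copies from amplification. Whole reads were recovered from the steps of the values for at least 99.99% of values (tolerance 0.0051 in normalized count). Of 54446 identifiers 54409 were matched to a symbol without the version. Groups and replicate numbers came from the labels.

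The main fits were made in R 4.3.3 with limma 3.58.1 (trend) on log2(value + 1), with genes of mean at least 10, over the 12 libraries of the Type 1 experiment, the 6 of the IL-4 experiment, or all 18 for differences of responses. The p-values rest on the spread between libraries of the same group (3 each), pooled over all groups of the fit. That spread is also drawn toward the spread of genes of similar level. The threshold, an adjusted p under 0.05 and 1.5-fold, is that of the study. All members are named, as is each list gene past the threshold against ACs, and Dhcr7, Srebf2, Acly and Mylip were added. The members and lists were chosen with earlier results of these data known, and 5 genes of the lists are not reported here. Alternatives tried were edgeR 4.0.16 on reads, DESeq2 1.42.0 on reads, a pseudocount raised to 5, no filter on low values, a filter at a mean of 50, a block for the replicate number, array weights, upper quartile rescaling, all 18 libraries, no fold threshold and each library left out. Scripts were tested on simulated data. Promoters came from RefSeq, and motifs were searched on both strands.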

Additional observations from a re-analysis of the deposited data

Results flagged for a closer look

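Of the 42 tested genes of the lists, 5 had a response to both stimuli that differed from the sum of the single responses, by the interaction term in limma over the 12 libraries of the Type 1 experiment. None of the 3 tested members did, and 7.44% of all genes did. All 5 were past the threshold against ACs with IFN-γ, a response that enters the term. Order and timing of the stimuli, described as IFN-γ followed by E. coli, also enter it and were not tested. The term is the difference with both stimuli minus the differences with each, on the log2(normalized count + 1) scale. It was -3.82 for Ch25h (SE 0.38, adjusted p = 5.18e-06), which rose with each stimulus alone and rose less with both. It was -1.72 for Mvd (SE 0.33, adjusted p = 0.00307), whose libraries with both stimuli (55.6 to 123) reached from below to above those with ACs (97.9 to 105). It was -1.12 for Lipa (SE 0.22, adjusted p = 0.00338) and -0.73 for Npc2 (SE 0.15, adjusted p = 0.00485), and the calls of Ch25h, Mvd, Lipa and Npc2 held whichever of the 12 libraries was left out. It was -1.65 for Nr1h3 (SE 0.46, adjusted p = 0.0334), a call lost without any of 6 of the 12 libraries, with all genes with any value above 0 (adjusted p = 0.061) and with all 18 libraries (adjusted p = 0.085).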

How the results depend on the processing

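Members past the threshold numbered 0 against ACs in all 4 stimuli under every alternative. With IFN-γ + ACs against E. coli + ACs the count was 1, and it was 0 with all genes with any value above 0, 2 with array weights (Fdft1 and Hmgcs1), and 0 to 1 with single libraries left out. With IFN-γ + E. coli + ACs against IFN-γ + ACs it was 0, and 0 to 1 with single libraries left out. In 183 of 191 repeats over the 11 comparisons the count did not change. Directions turned only for differences smaller than their SE, among them Insig1 with IL-4 (0.92, SE 1.12). Upper quartile rescaling, which moves the median of all genes with both stimuli to -0.18, gave -0.030 for Lss with IFN-γ and -0.058 for Hmgcs1 with both. Array weights gave -0.043 for Hmgcs1 with both and -0.10 for Insig1 with IL-4, for which edgeR gave -0.22, DESeq2 -0.12 and the fit without both shallow libraries -0.37. With single libraries left out, Lss with IFN-γ ranged from -0.10 to 0.20, Hmgcs1 with both from -0.16 to 0.38, Fdft1 with both from -0.12 to 0.52 and Insig1 with IL-4 from -0.52 to 1.68. The -0.52 of Insig1 was the value without the shallow ACs library, in which no Insig1 read was counted. The cause of the turns was not otherwise tested. Over all genes, IL-4 gave 79 higher and 37 lower calls, but 127 and 85 in edgeR, 128 and 81 in DESeq2, 125 and 83 with all genes with any value above 0, 389 and 356 with array weights, 116 and 105 with all 18 libraries, 45 and 29 with the replicate block, 345 and 311 without both shallow libraries, and from 31 and 16 without IL-4 + ACs replicate 1 to 95 and 35 without ACs replicate 3. The 756 calls of the non-additive term became 214 higher and 281 lower with all 18 libraries and 161 and 239 to 214 and 272 without ACs replicate 3, E. coli + ACs replicate 1 or IFN-γ + ACs replicate 2. The 461 calls of IL-4 against E. coli responses became 746 and 685 with array weights and 337 and 374 in DESeq2, and the 1486 against IFN-γ 1142 and 1281 with array weights. The replicate number as a block changed no call of the members (Fdft1 -1.12, adjusted p = 0.028), and residuals of same-numbered libraries were little correlated (from -0.089 to 0.085 over 18 pairs and 0.0005 to 0.021 over 3). With groups of 3 and the counting error of low genes, these correlations cannot tell whether the numbers pair the libraries. Of 31 calls of list genes against ACs, 23 held whichever library was left out. Depth limits Sqle, Idi1 and Fdps, which no fit with a filter could test.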
